A study of Mus musculus with 8 samples.

Results

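The insulin-like growth factors IGF1 and IGF2, their receptors and the secreted proteins that bind them were followed in a murine spleen stromal cell line, from the genes Igf1, Igf2, Igf1r, Igf2r, Igfbp2, Igfbp3, Igfbp4, Igfbp5, Igfbp6 and Igfbp7. These genes were taken by symbol, and all 10 had a value among the 12589 genes of the table. RNA-seq was performed on the mSSC-YFP line of spleen stromal cells, which expresses a yellow fluorescent protein and was grown in medium with fetal bovine serum. The labels list 4 cultures with the vehicle DMSO and 4 with BMS493, an inhibitor of retinoic acid (RA) signaling, each treated for 48 h. All cultures came from the same cell line, so that the values describe that line and not stromal cells in tissue.

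Each value reported here is the authors' mean of log2 normalized expression over all samples, vehicle and BMS493 cultures alike. It therefore shows how strongly a gene was expressed in the line and says nothing of the response to BMS493. Without values for each culture, neither a spread nor a test can be given, and library depth is unknown. Over all genes the mean log2 level ran from -0.58 to 13.3, with a median of 4.99. To compare genes of different length, the level was also expressed per kb of transcript, by subtracting the log2 of the length in kb of all annotated exons joined. The median over all genes matched to the annotation was 2.85 on that scale.

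Marker genes were read first to check the labelled cell type. All 8 stromal markers had a value, with mean log2 levels from 5.24 for Pdgfra to 13.3 for Col1a1. Acta2, the smooth muscle actin of contractile fibroblasts, had a mean log2 level of 11.5. Of the markers of reticular and marginal stroma in the spleen 1 of 6 had a value, the adhesion molecule gene Vcam1 with 8.03, and of the mural markers 2 of 4, Acta2 and Cspg4 (2.41). None of the 6 hematopoietic markers examined, among them Ptprc, had a value, and genes without a value were not analysed here. Of the endothelial markers 2 of 4 had one, Kdr at 2.83 and Pecam1 at 0.47. The epithelial list was divided, since Cdh1, which encodes E-cadherin, had a mean log2 level of 8.03, whereas the keratins Krt8 and Krt18 had 1.55 and 0.31. Whether cells of another type added to the levels below was not tested.

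IGF1 and IGF2 are small secreted hormones related to insulin, which act on growth and survival through IGF1R, a receptor tyrosine kinase. IGF2R carries no kinase domain. It takes IGF2 up for degradation and sorts lysosomal enzymes that bear mannose 6-phosphate. The binding proteins IGFBP2 to IGFBP6 hold both ligands with high affinity outside the cell and can block or prolong their action, whereas IGFBP7 binds them only weakly. Proteases such as PAPP-A cut some binding proteins and release the ligand.

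The binding protein genes spanned nearly the whole range of expression in the line, from Igfbp4 near the top to Igfbp5 near the bottom. The promoters of 3 of them are shown for that reason, namely those of Igfbp4, with the highest level, and of Igfbp2 and Igfbp5, which are neighbours in the genome with very unlike levels. Each sequence gives the 250 bases before a RefSeq transcription start on GRCm38.p6, on the strand of the gene. Capitals mark TATAAA in Igfbp4 and GGGCGG, a motif read by SP1 and related factors, in Igfbp2, and no motif is marked in Igfbp5. The regions are chr11:99040994-99041243 (plus strand), chr1:72824230-72824479 (plus strand) and chr1:72874866-72875115 (minus strand).
Igfbp4: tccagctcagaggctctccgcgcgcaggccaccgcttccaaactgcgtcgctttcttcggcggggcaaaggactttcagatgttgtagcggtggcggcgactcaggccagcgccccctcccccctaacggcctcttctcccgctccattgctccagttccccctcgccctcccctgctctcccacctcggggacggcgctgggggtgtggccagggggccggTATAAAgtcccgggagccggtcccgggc
Igfbp2: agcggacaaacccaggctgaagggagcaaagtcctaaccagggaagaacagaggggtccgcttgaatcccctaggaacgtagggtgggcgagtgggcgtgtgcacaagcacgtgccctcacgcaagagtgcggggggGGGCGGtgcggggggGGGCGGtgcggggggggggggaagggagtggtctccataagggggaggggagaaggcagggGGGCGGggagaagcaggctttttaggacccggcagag
Igfbp5: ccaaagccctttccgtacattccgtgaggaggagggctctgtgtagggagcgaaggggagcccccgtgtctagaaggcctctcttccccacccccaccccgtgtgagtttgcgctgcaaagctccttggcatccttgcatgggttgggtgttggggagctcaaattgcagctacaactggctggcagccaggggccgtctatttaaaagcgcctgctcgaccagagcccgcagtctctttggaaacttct

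In Igfbp4 the TATAAA began 28 bases before the start. In Igfbp2 the motif GGGCGG occurred 3 times. Among all 32851 RefSeq promoter windows of the same length, 12.4% held TATAAA and 32.7% held GGGCGG on either strand. The 10 genes had 14 such windows, of which 2 held TATAAA (in Igfbp4 and Igfbp6) and 6 held GGGCGG (in Igfbp2, Igfbp7, Igf1r, Igf2r and in 2 windows of Igf2). Windows rich in the dinucleotide CG belonged to strongly and weakly expressed genes alike. The window of Igf1r held 42 CG and that of Igfbp3, one of the lowest genes by level, held 32, against 22 in Igfbp4, 10 in Igfbp5 and a median of 6 over all windows.

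The core motif AGGTCA, of which RA receptors bind a pair of copies as a direct repeat, was searched because BMS493 acts on those receptors. It was present in 4 of the 14 windows, against 14.0% of all windows. These were the windows of Igf1, Igf1r and Igf2r and the most upstream of several windows of Igf2, whose other windows lacked it. No window of a binding protein gene held it, and whether this split departs from the share over all windows was not tested. These sites are printed on the strand that reads AGGTCA, with the motif in capitals and up to 8 bases on each side, cut at the transcription start in Igf2r. They lie at chr10:87860942-87860963 (plus strand), chr7:142667037-142667058 (plus), chr7:67952163-67952184 (minus) and chr17:12769707-12769725 (minus).
Igf1: gggaagagAGGTCAgctgccta
Igf2: acacagagAGGTCAagccactg
Igf1r: ctcgctgaAGGTCAaagccgag
Igf2r: gccgactcAGGTCAcgtga

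The motif began 161 bases before the start in Igf1, 234 in Igf2, 86 in Igf1r and 11 in Igf2r. The direct repeats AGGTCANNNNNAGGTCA and AGGTCANNAGGTCA were found in 0 of the 14 windows and in 3 windows each of the whole set. At 0.00913% of all windows each, none was likely in 14 windows in any case. Only these exact letters were searched, and variants of the core motif were not. A match to these letters is a description of the window and no evidence of binding.

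Of the binding proteins, Igfbp4 had the highest level. IGFBP4 holds the ligands until PAPP-A cuts it. Its gene lies on chromosome 11 from 99041244 to 99054392 of GRCm38 on the plus strand, with 4 exons in its longest transcript. The authors' mean log2 level was 9.86, higher than 99.3% of all genes, and the level per kb was 7.72 on the log2 scale. Igfbp4 also stood highest of the 10 genes per kb.

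Igfbp7, Igfbp2 and Igfbp6 followed, and all of them lay well above the median gene. Igfbp7, a matrix-associated protein of low affinity for the ligands, is on chromosome 5 (77349240 to 77408041, minus strand) and had a mean log2 level of 7.06, or 6.78 per kb. Igfbp2 is on chromosome 1 (72824503 to 72852474, plus strand), with a mean log2 level of 7.19 and 6.30 per kb. The order of Igfbp7 and Igfbp2 was not settled. Per kb of joined exons Igfbp7 was 1.40 times Igfbp2, whereas with the length of the longest transcript the ratio was 0.997. Igfbp6, which prefers IGF2 over IGF1, is on chromosome 15 (102144362 to 102149511, plus strand), with a mean log2 level of 6.15 and 5.99 per kb.

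Igfbp3 and Igfbp5 were close to the lower end. Igfbp3, the main carrier of the ligands in blood, is on chromosome 11 (7206086 to 7213923, minus strand). Its mean log2 level of 1.56 was above 10.5% of all genes, and its level per kb was -0.09 on the log2 scale. Igfbp5, a matrix-bound member, is on chromosome 1 (72857932 to 72874884, minus strand) and had a mean log2 level of 0.33, above 2.49% of all genes, and -2.26 per kb. Per kb of joined exons Igfbp4 was 1007 times Igfbp5, and the ratio was 1161 with the longest and 5994 with the median coding transcript. The size of these ratios is uncertain, because Igfbp5 was close to the lowest level of all genes, -0.58. At such a level a count added before logs, which is not known, would change the ratio.

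**Figure D1:**
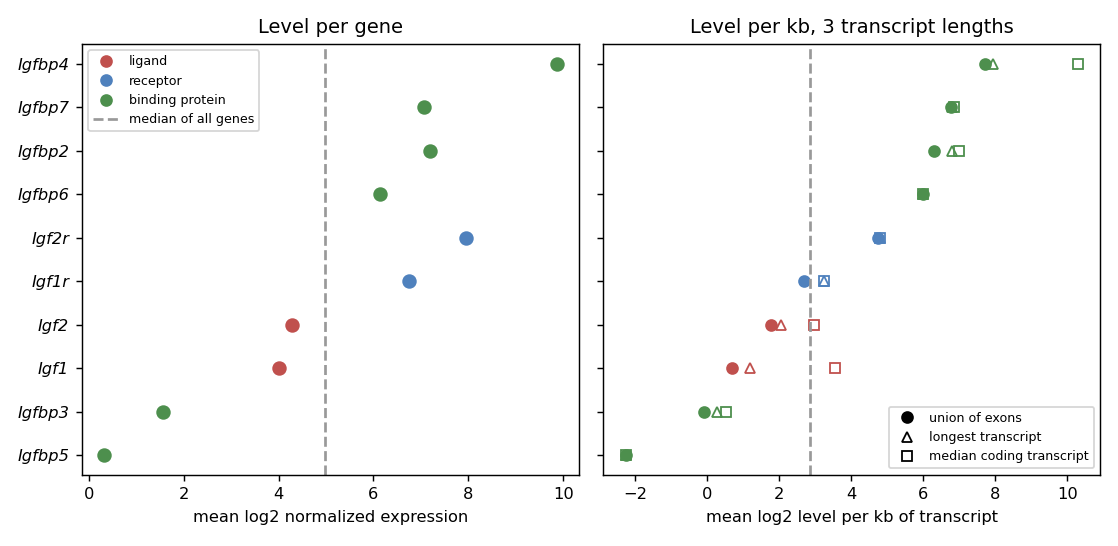
The left panel plots the authors' mean log2 normalized expression of the 10 genes and the right panel the log2 level per kb with 3 definitions of transcript length, with ligands in red, receptors in blue, binding proteins in green and the median of all genes as a dashed line. Igfbp4 is highest and Igfbp5 lowest in both panels, and the open squares of Igf1 and Igfbp4 lie far to the right of the other symbols.

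**Figure D2:**
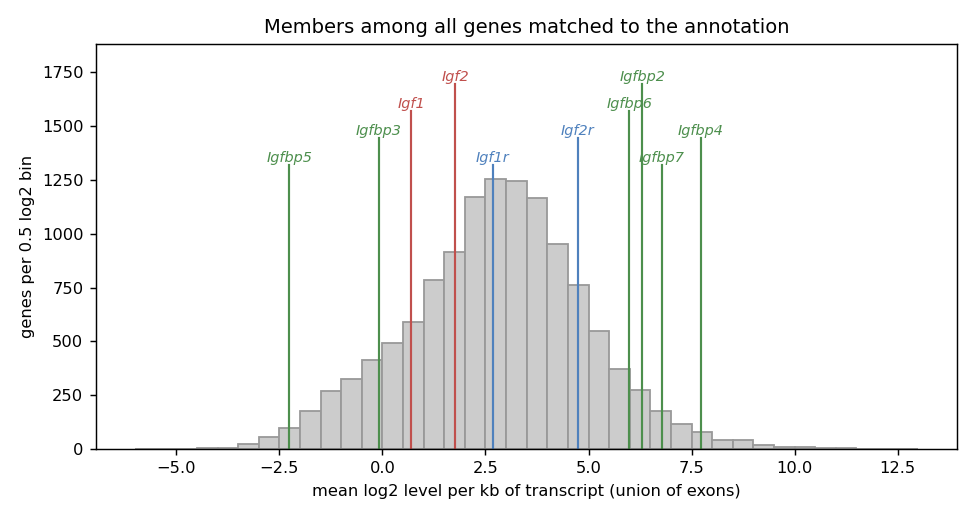
Grey bars count all genes matched to the annotation by log2 level per kb of joined exons, in bins of 0.5, and vertical lines mark the 10 genes. Igfbp4, Igfbp7, Igfbp2, Igfbp6 and Igf2r lie to the right of the peak, whereas Igf1r lies within it and Igf2, Igf1, Igfbp3 and Igfbp5 lie to its left.

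To set the binding protein mRNAs against each other, their levels per kb were put on a linear scale and summed. Igfbp4 made up 45.3% of the sum over the 6 genes, Igfbp7 23.7%, Igfbp2 17.0% and Igfbp6 13.7%. Igfbp3 and Igfbp5 added 0.203% and 0.0450%. With the longest transcript as length, the share of Igfbp4 was 45.8%, and with the median coding transcript it was 80.3%. The last value rests on a median length of 742 bases over the coding transcripts annotated for Igfbp4, against 4416 bases for its joined exons.

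**Figure D3:**
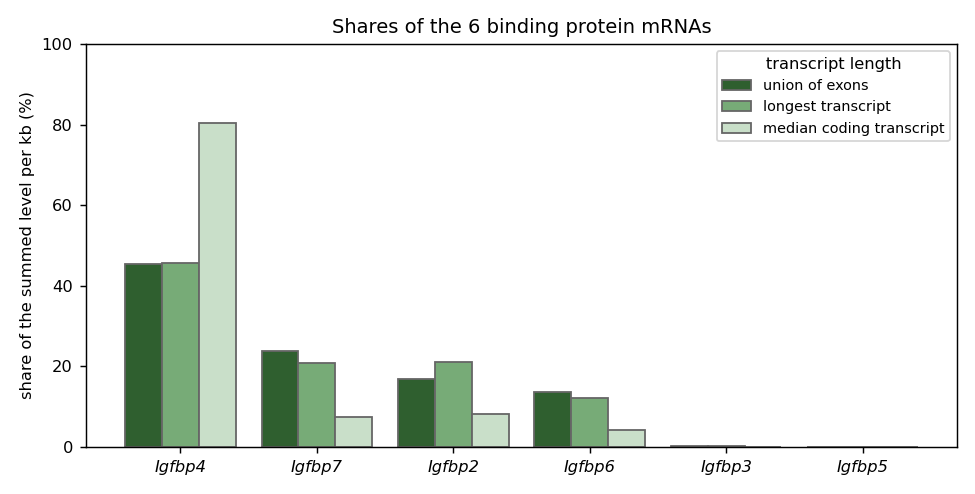
Bars give the share in percent of each binding protein gene in the summed linear level per kb of the 6 genes, for 3 definitions of transcript length. Igfbp4 has the tallest bar under each definition, from 45.3% to 80.3%, and those of Igfbp3 and Igfbp5 are barely visible.

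Igfbp2 and Igfbp5 lie side by side on chromosome 1 and point towards each other, with 5.457 kb between their ends. Their levels were nonetheless very different. Per kb of joined exons Igfbp2 was 377 times Igfbp5, a difference of 8.56 on the log2 scale, and the difference was 9.06 and 9.24 with the other lengths. As Igfbp5 was near the lower end of the table, the size of this difference is uncertain. Igfbp3 has a similar neighbour, Igfbp1, at a distance of 3.539 kb, which was not analysed here. Next to Igfbp4 lie Top2a, a topoisomerase of dividing cells, with a mean log2 level of 9.15, and Tns4, with 2.46. The neighbours of Igfbp6 are Spryd3 at 5.64 and Soat2 at 1.52. Farther off lie Ttc23 (4.07), 189.9 kb from Igf1r, and Rpl37a (3.05), 110.7 kb from Igfbp2. Noa1 (5.11) lies 39.2 kb from Igfbp7 and Tns3 (8.50) 1217.7 kb from Igfbp3. Igfbp7 shares 85 exonic bases with Polr2b, a gene on the opposite strand with a mean log2 level of 7.25.

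**Figure D4:**
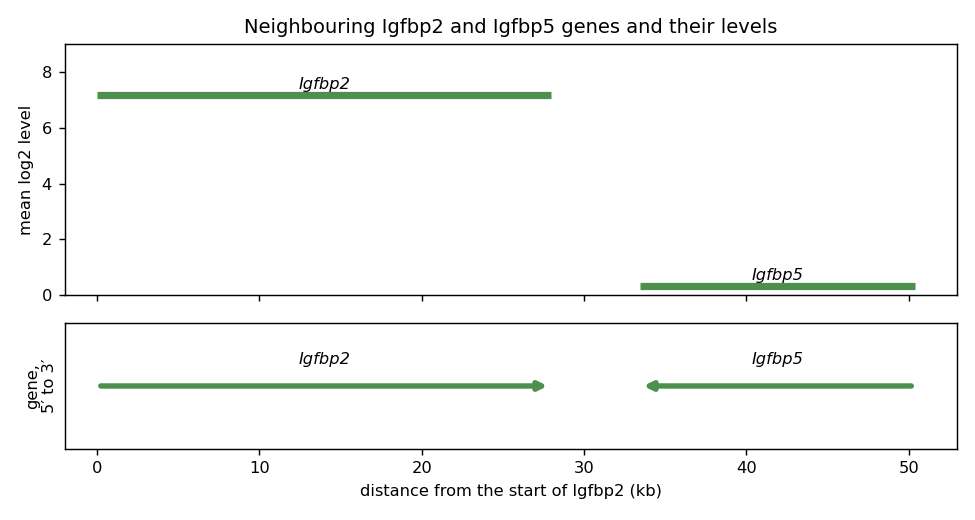
The upper panel plots the mean log2 level of Igfbp2 (7.19) and Igfbp5 (0.33) over the span of each gene, and the lower panel shows their direction, against the distance in kb from the start of Igfbp2. The genes converge and are 5.457 kb apart.

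Both ligand genes were expressed below the median gene. Igf2, a fetal growth factor expressed from the paternal copy, is on chromosome 7 (142650766 to 142666816, minus strand) and had a mean log2 level of 4.29, above 37.8% of all genes. Igf1, the ligand induced by growth hormone in liver and made locally in many tissues, is on chromosome 10 (87858265 to 87937042, plus strand), with a mean log2 level of 4.00, above 33.6% of all genes. Per kb of joined exons Igf2 had 1.77 and Igf1 0.70 on the log2 scale, a ratio of 2.10. With the median coding transcript as length the ratio was 0.664, so that which ligand mRNA was more abundant depended on the transcripts used. In GENCODE M21, 3596 of the 5723 exonic bases of Igf2 are shared with a gene on the same strand, Gm49394. Reads from the shared bases cannot be told apart. Whether the annotation used by the authors for counting held Gm49394 was not checked. Insulin genes, Ins1 and Ins2, were not analysed here.

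Summed over the linear levels per kb, the 6 binding protein genes exceeded the ligand genes by a factor of 92.3. The factor was 82.7 with the longest transcript and 79.9 with the median coding transcript. These are ratios of mRNA in the line. Igfbp7, whose product binds the ligands only weakly, gave 23.7% of the binding protein sum per kb of joined exons. The ligand sum includes Igf2, whose level may be too high or too low. How reads on the bases shared with Gm49394 were counted is not given. Ligand supplied by the serum of the medium is not measured by RNA-seq.

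Of the receptors, Igf2r was expressed more strongly than Igf1r. Igf2r, expressed from the maternal copy in most mouse tissues, is on chromosome 17 (12682406 to 12769664, minus strand) with 48 exons in its longest transcript, and had a mean log2 level of 7.95 and 4.73 per kb. Igf1r is on chromosome 7 (67952827 to 68233668, plus strand) with 21 exons, and had 6.75 and 2.68 per kb. Igf2r was thus 4.15 times Igf1r per kb of joined exons, and 2.96 times with both other lengths. Airn, the noncoding RNA that overlaps Igf2r on the opposite strand, had a mean log2 level of 0.46. Insr, the insulin receptor, which can pair with IGF1R, had a mean log2 level of 5.88 and 2.10 per kb. Igf1r was 1.49 times Insr per kb of joined exons but 0.802 times with the median coding transcript, so that their order was not settled.

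The machinery that makes and reads the mannose 6-phosphate tag, to which IGF2R binds, was present as well, with values for 4 of 4 genes. M6pr, the other mannose 6-phosphate receptor, had a log2 level per kb of joined exons of 5.47, above the 4.73 of Igf2r. With the longest transcript as length the levels were 5.95 and 4.80, and with the median coding transcript 6.19 and 4.80. The enzyme genes that attach and uncover the tag had 4.33 for Gnptab, 2.99 for Gnptg and 3.10 for Nagpa per kb of joined exons. With the median coding transcript Gnptab had 7.43, above both receptors, whereas Gnptg and Nagpa had 3.36 and 3.21.

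Of 9 genes for proteases of the binding proteins and for their inhibitors, 6 had a value. Pappa, whose product PAPP-A cuts IGFBP4 in the presence of ligand, was among the weakest genes of the table, with a mean log2 level of 0.47 and -3.00 per kb. Only 0.251% of all matched genes had a lower level per kb. Stc2, an inhibitor of PAPP-A, had -0.60 per kb. In contrast Htra1, a serine protease that cuts IGFBP5, had a log2 level per kb of 6.01, and the metalloprotease genes Adam9 and Adamts1 had 6.27 and 5.08. Adam12, which cuts IGFBP3 and IGFBP5, had 0.16. Thus Igfbp4 was at the top and the gene of its main protease at the bottom of the range, whereas for IGFBP5 the gene of the protease HTRA1 stood well above that of the binding protein.

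The CCN family shares the N-terminal domain of the binding proteins. All 5 genes had a value. Cyr61 had the highest log2 level of them per kb of joined exons, 8.93, followed by Ctgf with 7.71, against 7.72 for Igfbp4. With the median coding transcript as length the order turned, with 10.3 for Igfbp4, 8.93 for Cyr61 and 7.96 for Ctgf. Wisp1 had 6.07 per kb of joined exons, whereas Wisp2 and Nov had -0.21 and -0.31. The 3 Igf2bp genes, whose products bind Igf2 and other mRNAs, had 4.86 (Igf2bp2), 3.12 (Igf2bp1) and 2.93 (Igf2bp3) per kb.

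Downstream of IGF1R, 30 of 32 listed signalling genes had a value, with a median log2 level of 6.24. By level without regard to length, 27 of them were above the median gene of the table, against 6 of the 10 growth factor, receptor and binding protein genes. The median level of those 10 genes was nonetheless the higher one, at 6.45. Per kb of joined exons, 5 of those 10 genes were above the median of 2.85. Their own median was 3.71, against 3.14 for the signalling genes. Highest per kb of joined exons were the kinase gene Akt1 with 6.57, the phosphatase gene Ptpn11 with 5.15 and the adaptor gene Grb2 with 5.05. Lowest were Tsc1 with 1.79, Sos2 with 1.52 and Foxo1, a transcription factor held out of the nucleus by AKT, with 0.08. Akt1 was highest and Foxo1 lowest with all 3 lengths, but the places next to them depended on the length. Shc1 came after Akt1 with the longest transcript (5.39) and Pik3r2 with the median coding transcript (7.02), and Rictor (1.80 per kb of joined exons) differed little from Tsc1. The substrates that dock on the receptor had 3.38 for Irs2 and 2.47 for Irs1, and Grb10, an adaptor that dampens the receptor, had 3.90.

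**Figure D5:**
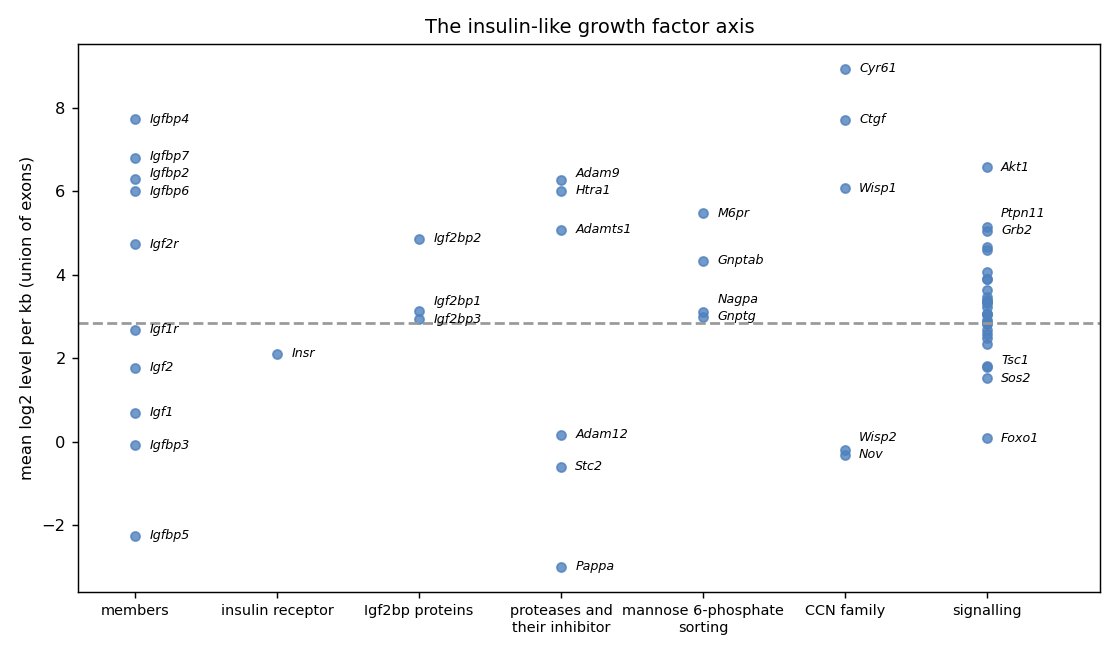
Points give the log2 level per kb of joined exons for the 10 genes and for the other genes of the axis by role, with the median of all genes as a dashed line and, for the signalling genes, names for the 3 highest and 3 lowest. The genes of secreted proteins reach from -3.00 (Pappa) to 8.93 (Cyr61), whereas all signalling genes but Foxo1 lie between 1.52 and 6.57.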

How the data were processed

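RNA-seq was performed on 4 DMSO and 4 BMS493 cultures of mSSC-YFP stromal cells. According to the methods and the submitters' processing notes, stranded mRNA libraries were aligned to mm10 with STAR 2.3.0e, uniquely mapped reads were counted on Ensembl genes with Rsubread and normalized between libraries by weighted trimming of M-values. Whether counting used the strand, or a count was added before logs, is not given in the sources used here. The authors deposited 1 table. Its mean log2 normalized expression over the samples was the only value used. The other columns hold the authors' own comparison (log2 fold change, t, p and adjusted p) and were not used, so that the edgeR or limma test foreseen in the design was not run. Decimal commas were converted. Per library depth is unknown.

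Lengths and positions come from GENCODE M21, whose GRCm38 assembly is mm10. The authors counted reads on an Ensembl annotation other than this one. Lengths and overlaps given here may therefore differ from those of the counted genes. In all, 11771 genes matched by symbol and 598 through an older symbol, 98.3% of the table, and 2 entries that share a date-like symbol were left out. Linear sums are sums of 2 raised to the mean log2 level per kb. Genes named are the 10 members, all genes of the short pathway lists with a value, the 3 highest and 3 lowest signalling genes, the nearest coding genes, and, added after their values were seen, Irs1, Irs2, Grb10, Shc1, Pik3r2, Rictor, Airn, Polr2b and Gm49394. Members and lists were chosen with earlier results of these data known. The length step was tested on simulated intervals, and the strand of the printed promoters was checked against transcript sequences. Motifs were searched on both strands. Python 3.11.15, numpy 2.4.6, pandas 2.3.3 and matplotlib 3.10.9 were used. A marker of the hematopoietic list is not reported here.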

Additional observations from a re-analysis of the deposited data

How the results depend on the processing

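No paired analysis was possible because the values are means over all samples. For the same reason no test by another tool and no fit without a culture was run, and the spread between cultures, which would limit every order given, is unknown. Alternatives were counted as moved past a factor of 1.5 for levels or lists and past 5 points for percentiles. With the longest transcript as length none of the 10 levels per kb moved that far. With the median coding transcript 5 did, to 10.3 for Igfbp4, 6.99 for Igfbp2, 3.55 for Igf1, 2.96 for Igf2 and 0.51 for Igfbp3, as these genes have short annotated transcripts. Among genes with a mean log2 level of at least 1, Igfbp3 fell to percentile 3.92, since 11733 genes were left, and Igfbp5 could not be ranked. Among protein-coding genes no percentile moved by over 5 points. With current symbols alone the CCN list had 0 values.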
